A study of Mus musculus with 29 samples.

Results

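The tumor suppressor gene Trp53 and 9 genes that the p53 protein is known to regulate or act through, Mdm2, Cdkn1a, Ccng1, Bax, Bbc3, Pmaip1, Eda2r, Phlda3 and Sesn2, were followed through the gene expression profiles of the embryonic mouse cortex with and without BAF chromatin remodeling complexes. The 10 genes were taken as a fixed list by symbol, chosen with earlier results of these data known. They stand among 36831 genes listed in both sets of count tables (38355 in the untreated and 48709 in the treated set). All 10 were listed in every RNA-seq library and passed the filter on low counts in both experiments.

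The double conditional knockout (dcKO) lacks the BAF subunits BAF155 and BAF170, encoded by Smarcc1 and Smarcc2, wherever the hGFAP-Cre transgene has recombined both floxed alleles (Baf155 fl/fl and Baf170 fl/fl). This Cre is active in late cortical progenitors, first in the medial and later in the dorsal and lateral pallium, so cells born before recombination and cells of other lineages keep the complex. All embryos were C57BL/6J and E17.5. The untreated experiment had 4 libraries with the letter C and 3 with the letter M, and the genotype field of the deposited labels gives the knockout for both letters, so these groups are named by their letters here. The treated experiment had 4 wild type libraries from vehicle-treated pregnancies (WT vehicle), 4 dcKO vehicle libraries and 4 dcKO libraries from mothers injected daily with the Wnt inhibitor ICG-001 (dcKO Wnt inhibitor). The study's methods describe controls as heterozygous littermates that carry Cre, whereas the labels of the treated controls read wild type. H3K27me3, a repressive histone mark, was profiled in 4 C and 4 K chromatin samples.

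The p53 protein is a transcription factor that is held at a low level by the ubiquitin ligase MDM2 and accumulates after DNA damage, replication stress or disturbed ribosome production. It then binds to response elements near its target genes and raises their transcription, which can halt the cell cycle (Cdkn1a) or start death through mitochondria (Bax, Bbc3, Pmaip1). Because p53 is controlled mainly at the protein level, target transcripts are commonly read as a sign of its activity, and in the developing cortex progenitors are known to be sensitive to its activation.

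The DNA element that p53 recognizes is a pair of adjacent 10 bp motifs. The GRCm38 genome of RefSeq (the build that mm10 names) was searched for the p53 response element with no spacer, allowing at most 2 mismatches of 20 bp outside the conserved C and G of each motif, within 3000 bp of the annotated start of each gene (GENCODE annotation). The element is its own reverse complement, so both strands were read at once. Such a match lay near 5 of the 10 genes, against 5.91% of 21938 protein-coding genes, and matches with at most 1 mismatch lay near Cdkn1a and Ccng1, against 0.957%. None of the 10 had an exact match (0.109% of all genes). The matches are shown because p53 is known to bind elements of this form. Each is printed 5′ to 3′ on the strand of the gene with the 20 bp of the match in capitals. Binding of p53 at these positions was not tested. The sequence of the Pmaip1 site, 94 bp upstream of its start with 2 mismatches, is not printed. A match is a description of these letters only.
Cdkn1a (chr17:29090928-29090947, plus strand, 39 bp upstream of the start, 1 mismatch): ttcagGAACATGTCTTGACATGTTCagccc
Ccng1, upstream (chr11:40755462-40755481, minus strand, 160 bp upstream, 1 mismatch): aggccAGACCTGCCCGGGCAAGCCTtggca
Ccng1, intronic (chr11:40754936-40754955, minus strand, 366 bp downstream, 1 mismatch): ccggaACGCAAGCCCGGGCTAGTCTgcgcc
Bax (chr7:45466574-45466593, minus strand, UTR, 315 bp downstream, 2 mismatches): cccccGGGCAGGCCCGGGCTTGTCGctggc
Eda2r (chrX:97376534-97376553, minus strand, intronic, 673 bp downstream, 2 mismatches): tgcctGGGCAAGTCCGGGCCTGTGTaaaaa
The Cdkn1a, Pmaip1 and upstream Ccng1 sites lie before the start of their genes and the other 3 lie within their genes.

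Several libraries stood apart from their labels, which bears on every comparison. Total counts ranged from 11946658 (M 2) to 28391046 in the untreated and from 12514443 (WT vehicle 3) to 26600594 in the treated experiment. Smarcc1 lay between 245 and 299 CPM (read counts scaled to the TMM-adjusted library size) in the C and WT vehicle libraries, and at or above 80% of the lowest control library in 4 of the 11 M and dcKO libraries, namely the libraries labelled M 2 (245 CPM), dcKO vehicle 2 (242), dcKO Wnt inhibitor 1 (214) and dcKO Wnt inhibitor 2 (252). The other 7 held 128 to 173 CPM, with the library labelled dcKO Wnt inhibitor 4 the highest of them. Smarcc2 split the libraries differently, at 586 to 695 CPM in these 4 libraries and inhibitor 4 and at 398 to 439 CPM in the remaining 6. The controls had 654 to 834 CPM. Inhibitor 4, with 586 CPM, was thus low by Smarcc1 but nearer these 4 libraries by Smarcc2. The spermatid gene Prm1 reached 8.21 to 30.8 CPM in the 7 libraries with low Smarcc1, 2.49 to 2.87 CPM in the 4 others and at most 0.331 CPM in the controls, while 2 or 3 of the other 3 spermatid markers were at 0 in every library of each group. Each comparison is therefore given with all libraries and again without these 4.

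The 2 experiments may also share animals, which the labels do not say. Same-numbered libraries (C with WT vehicle, M with dcKO vehicle) carried the same pattern of Xist and Y-linked transcripts in 7 of 7 pairs, and in 6 of 18 pairs with different numbers. Across 16156 genes, deviations from the group mean correlated with r between 0.20 and 0.73 in the same-numbered pairs and between −0.62 and 0.18 in the others. The library labelled dcKO vehicle 1 held both Xist (687 CPM) and Y-linked transcripts (109 CPM). The untreated and vehicle comparisons are accordingly set side by side and not counted as 2 independent results.

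The markers of cortical progenitors and neurons (8 of 8 detected) summed to 2927 to 4219 CPM in all groups. Choroid plexus markers (4 of 4 detected) summed to 4.20 to 8.02 CPM in the M and dcKO vehicle libraries, 4.47 to 126 CPM in the controls and 5.98 to 825 CPM in the inhibitor libraries. Endothelial markers summed to 112 to 126 CPM in M and dcKO vehicle and to 122 to 159 CPM in the controls. Microglial markers summed to 35.3 to 58.0 CPM, red blood cell markers to 107 to 228 CPM outside and 190.7 to 233 CPM inside the inhibitor group and meningeal fibroblast markers to 8.32 to 45.1 CPM, with overlapping ranges in M or dcKO vehicle and their controls. In bulk tissue, fewer cells of a type and less RNA per cell cannot be told apart.

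The 10 genes covered a wide range of levels, and their order by level was nearly the same in every group. Levels of different genes were compared per kilobase of exon. Bax, an effector of mitochondrial death, was the highest in all 5 groups, with a mean of 30.7 to 37.8 CPM per kb, and its range did not overlap that of the next gene in any group. Trp53 followed with 17.502 to 23.1 and Mdm2 with 14.04 to 17.3 CPM per kb, and the ranges of these genes overlapped in C and WT vehicle but not in the other groups. Ccng1 had 11.7 to 15.7 CPM per kb. Cdkn1a had 4.19 to 4.94 CPM per kb and overlapped with Phlda3 (3.32 to 4.67) in every group. Sesn2 (1.40 to 1.80), Eda2r (0.460 to 0.947) and Pmaip1 (0.367 to 0.837) were the lowest, with Eda2r and Pmaip1 overlapping in all groups but C. The Pmaip1 values rest on 11 to 72 reads per library. Bbc3 moved in the order, with 5.69 and 6.13 CPM per kb in the untreated groups and 11.5 to 13.7 in the treated groups, which were counted into tables with another set of genes.

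**Figure D1:**
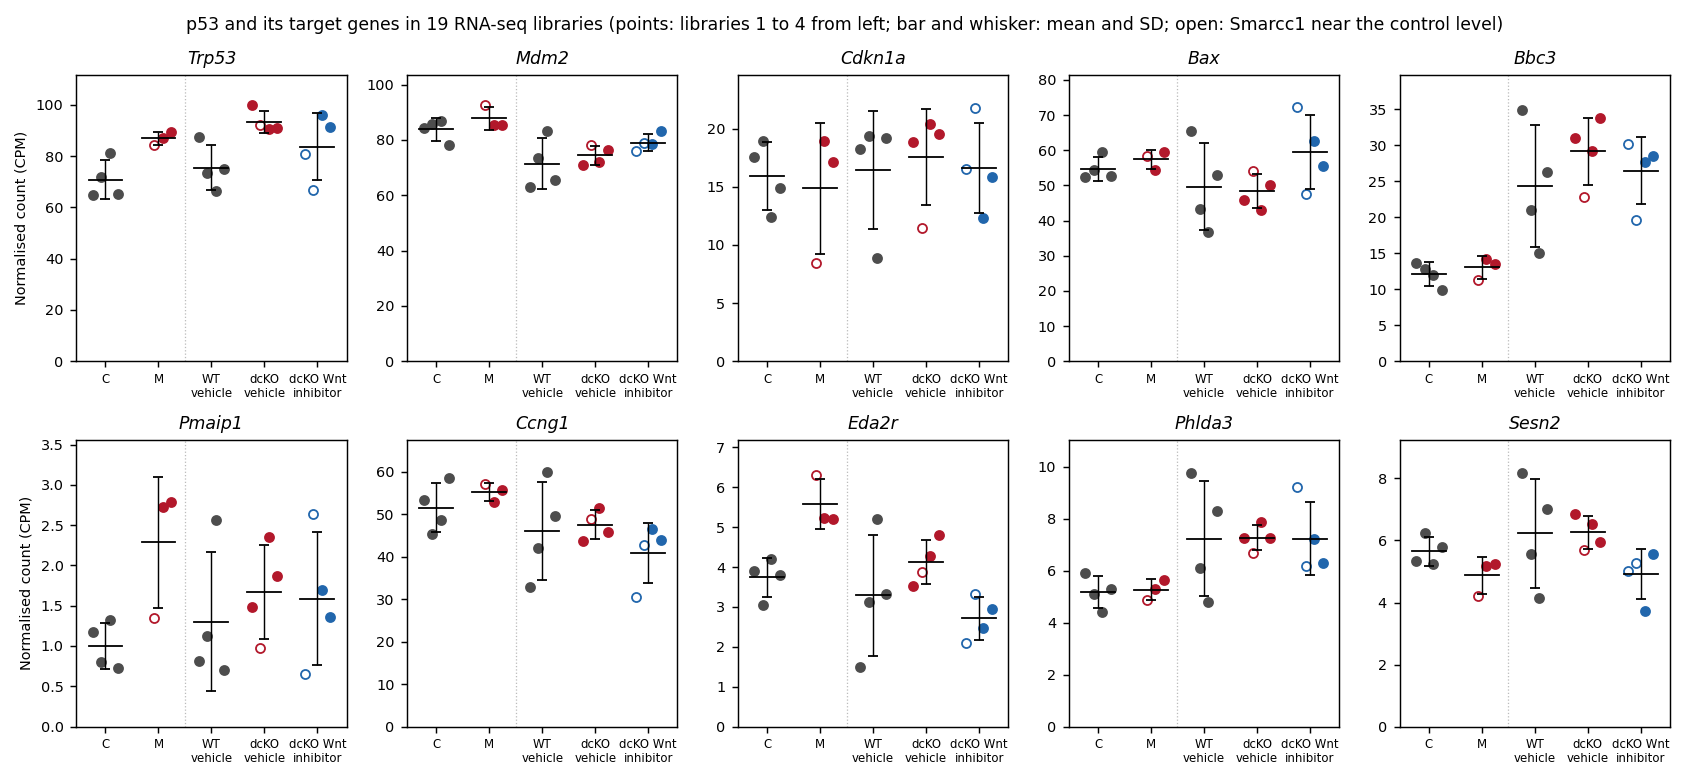
Normalised counts (CPM, axes from 0) of the 10 genes in the 19 RNA-seq libraries, with points for libraries 1 to 4 from left to right in each group, the mean and SD as bar and whisker, and open points for the 4 libraries with Smarcc1 near the control level. Trp53 lies higher in every M than every C library and in every dcKO vehicle than every WT vehicle library, Pmaip1 and Eda2r lie higher in every M than every C library, Eda2r and Sesn2 lie lower in every inhibitor than every dcKO vehicle library, and Cdkn1a is low in M 2, WT vehicle 3 and dcKO vehicle 2.

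Trp53 (chr11:69580359-69591873, plus strand), the gene of p53 itself, was the only member with non-overlapping groups in M against C and in dcKO vehicle against WT vehicle. Its level in C 1 to 4 was 64.8, 71.8, 81.2 and 65.3 CPM and in M 2 to 4 it was 84.2, 87.3 and 89.4 CPM. Every M library thus exceeded every C library, M 2 among them. In the treated experiment, WT vehicle had 87.6, 73.3, 66.2 and 75.2 CPM, dcKO vehicle 99.8, 92.2, 90.6 and 91.1 CPM, and dcKO Wnt inhibitor 80.8, 66.9, 95.9 and 91.6 CPM. The dcKO vehicle libraries all lay above the WT vehicle libraries, also in dcKO vehicle 2, while the inhibitor group spanned both, with its 2 libraries of near-control Smarcc1 at the low end.

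Mdm2 (chr10:117688875-117710758, minus strand), whose product marks p53 for degradation and which is itself a p53 target, showed little spread. C libraries had 84.5, 85.6, 87.0 and 78.0 CPM and M libraries 92.7, 85.3 and 85.5 CPM. WT vehicle had 63.1, 73.5, 83.4 and 65.5 CPM, dcKO vehicle 70.9, 78.3, 72.2 and 76.4 CPM, and the inhibitor group 75.9, 78.7, 78.5 and 83.1 CPM. All groups compared overlapped, and the highest M library was M 2, in which Smarcc1 was near the control level.

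Cdkn1a (chr17:29090976-29100727, plus strand) encodes p21, the inhibitor of cyclin-dependent kinases through which p53 halts the cell cycle. C libraries had 17.6, 18.97, 12.4 and 14.9 CPM and M libraries 8.48, 18.97 and 17.2 CPM. WT vehicle had 18.3, 19.3, 8.85 and 19.2 CPM, dcKO vehicle 18.9, 11.4, 20.4 and 19.5 CPM, and the inhibitor group 16.6, 21.8, 12.3 and 15.8 CPM. The groups overlapped in each comparison, and single libraries set the spread, since M 2, dcKO vehicle 2 and WT vehicle 3 were each the lowest of their group. The annotated gene AC167363.2 on the opposite strand shares 273 bp (7.68%) of the Cdkn1a exons, and the kit did not mark strand, so reads of these bases cannot be assigned to either.

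Ccng1 (chr11:40748552-40755311, minus strand), encoding cyclin G1, an early p53 target that takes part in MDM2 regulation, had 53.4, 45.5, 48.6 and 58.7 CPM in C and 57.1, 52.9 and 55.7 CPM in M. WT vehicle had 32.8, 42.2, 60.0 and 49.5 CPM, dcKO vehicle 43.8, 49.0, 51.5 and 45.8 CPM, and the inhibitor group 30.5, 42.8, 46.5 and 44.0 CPM. All groups overlapped, and WT vehicle alone spanned the range of the other treated groups but for inhibitor 1.

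Among the genes of mitochondrial death, Bax (chr7:45461697-45466898, minus strand), which permeabilizes the outer membrane, had 52.3, 54.3, 59.4 and 52.7 CPM in C and 58.4, 54.3 and 59.5 CPM in M. WT vehicle had 65.5, 43.3, 36.9 and 52.8 CPM, dcKO vehicle 45.8, 54.2, 43.1 and 50.2 CPM, and the inhibitor group 72.4, 47.7, 62.6 and 55.4 CPM. The groups overlapped throughout, and Bax was highest in inhibitor 1. The gene Gm45808 shares 192 bp (12.2%) of the Bax exons on the same strand, so part of the reads may have been left out or split.

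Bbc3 (chr7:16308393-16318205, plus strand) encodes PUMA, a BH3-only activator of death. C libraries had 13.6, 12.9, 12.03 and 9.85 CPM and M libraries 11.2, 14.2 and 13.6 CPM. WT vehicle had 34.9, 21.03, 15.1 and 26.3 CPM, dcKO vehicle 30.9, 22.8, 29.2 and 33.7 CPM, and the inhibitor group 30.1, 19.6, 27.6 and 28.5 CPM. Groups overlapped in each comparison, with the lowest M and dcKO vehicle values in M 2 and dcKO vehicle 2.

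Pmaip1 encodes NOXA, another BH3-only protein, and gave the largest fold among the members. Its level was 1.18, 0.798, 1.32 and 0.723 CPM in C and 1.34, 2.73 and 2.79 CPM in M. All M libraries were above all C libraries, M 2 by the smallest margin. WT vehicle had 0.818, 1.13, 2.56 and 0.697 CPM, dcKO vehicle 1.49, 0.980, 2.35 and 1.86 CPM, and the inhibitor group 0.658, 2.64, 1.70 and 1.36 CPM. These groups overlapped, since WT vehicle 3 was above the highest dcKO vehicle library and dcKO vehicle 2 lay among the controls.

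Eda2r (chrX:97333840-97377216, minus strand), a receptor of the tumor necrosis factor receptor family, had 3.91, 3.06, 4.20 and 3.80 CPM in C and 6.30, 5.23 and 5.21 CPM in M. M exceeded C in every library, and the highest was M 2. WT vehicle had 1.48, 3.12, 5.21 and 3.33 CPM, dcKO vehicle 3.52, 3.87, 4.27 and 4.80 CPM, and the inhibitor group 2.09, 3.33, 2.48 and 2.95 CPM. All inhibitor libraries lay below all dcKO vehicle libraries, whereas WT vehicle overlapped with both. The gene is X-linked, and Xist was present in 2 of 4 C, 2 of 3 M, 2 of 4 WT vehicle, 3 of 4 dcKO vehicle and 1 of 4 inhibitor libraries, whose part in these values was not tested.

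Phlda3 (chr1:135766119-135769136, plus strand), an inhibitor of AKT signaling, had 5.92, 5.10, 4.41 and 5.29 CPM in C and 4.87, 5.30 and 5.65 CPM in M. WT vehicle had 9.77, 6.09, 4.80 and 8.29 CPM, dcKO vehicle 7.26, 6.68, 7.89 and 7.27 CPM, and the inhibitor group 9.21, 6.20, 7.24 and 6.30 CPM. Groups overlapped in all comparisons.

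Sesn2 (chr4:132492032-132510501, minus strand), a stress-induced restraint on mTORC1 signaling, had 5.34, 6.25, 5.23 and 5.78 CPM in C and 4.20, 5.19 and 5.25 CPM in M. WT vehicle had 8.18, 5.58, 4.13 and 7.01 CPM, dcKO vehicle 6.86, 5.70, 6.54 and 5.97 CPM, and the inhibitor group 5.02, 5.28, 3.74 and 5.58 CPM. The M group reached into the C group by a small margin, and every inhibitor library lay below every dcKO vehicle library.

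The comparison of M with C asks how the transcriptome differs between the untreated groups. Trp53, Pmaip1 and Eda2r were higher in M, each with no overlap between the groups, whereas Mdm2, Cdkn1a, Ccng1, Bax, Bbc3, Phlda3 and Sesn2 differed by 0.20 or less on the log2 scale. With all libraries, no member passed an adjusted p under 0.05 (0 of 10, against 0.00634% of 15770 genes tested, 1 gene). Pmaip1 was 2.33-fold higher (95% interval 1.45 to 3.72, log2 fold change 1.22, SE 0.30, adjusted p = 0.143, edgeR quasi-likelihood test with Benjamini-Hochberg adjustment). Eda2r was 1.48-fold higher (1.16 to 1.89, log2 fold change 0.56, SE 0.16, edgeR adjusted p = 0.154). Trp53 was 1.23-fold higher (1.08 to 1.40, log2 fold change 0.30, SE 0.08, edgeR adjusted p = 0.154). These 3 genes made up all members at an unadjusted p under 0.01, which 5.46% of all genes reached (2.66% as higher), and all members with every M library higher, which 6.96% of all genes showed. Of the classical arrest and death genes, Cdkn1a changed by −0.07 (95% interval −0.67 to 0.52), Bax by 0.07 (−0.08 to 0.22) and Bbc3 by 0.12 (−0.19 to 0.42) on the log2 scale. In all, 8 log2 fold changes of members were positive and 2 negative. Their median was 0.08 beside 0.00 over all genes tested. Endothelial markers lay lower in every M than in every C library, and their part in these values was not tested.

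Without the library labelled M 2, a choice made after seeing the data, Pmaip1 and Trp53 passed the test. Pmaip1 then rose 2.71-fold in M (log2 fold change 1.44, SE 0.26, edgeR adjusted p = 0.00506) and Trp53 1.25-fold (log2 fold change 0.32, SE 0.09, edgeR adjusted p = 0.0435). In that fit 12.4% of all genes passed (5.57% as higher). The unadjusted edgeR p of Trp53 was 0.00514 without M 2 and 0.00517 with it. Its lower adjusted p thus came with the larger number of genes called and not with a stronger difference in Trp53. The fold of Eda2r was smaller (log2 fold change 0.48, edgeR adjusted p = 0.0876), since M 2 had held its highest value. Cdkn1a turned to 0.18 on the log2 scale (edgeR adjusted p = 0.507). With 2 M libraries left, the fit rests on their spread and that of the 4 C libraries.

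The comparison of dcKO vehicle with WT vehicle puts the same question to the treated experiment. Trp53 was again higher in every library labelled dcKO vehicle, dcKO vehicle 2 with its near-control Smarcc1 among them, Pmaip1, Eda2r and Bbc3 had positive log2 fold changes within the spread of the groups, and the other 6 genes lay within 0.09 of 0 on the log2 scale. No member passed an adjusted p under 0.05 (0 of 10, against 0.00611% of 16372 genes, 1 gene), and none had an unadjusted p under 0.01, which 2.85% of all genes had. Trp53 was 1.24-fold higher (95% interval 1.04 to 1.47, log2 fold change 0.31, SE 0.12, edgeR adjusted p = 0.412). It was the 1 member with all dcKO vehicle libraries higher, as were 3.08% of all genes. The log2 fold change was 0.45 for Pmaip1 (95% interval −0.52 to 1.42), 0.35 for Eda2r (−0.26 to 0.96) and 0.25 for Bbc3 (−0.22 to 0.73). The median of the members was 0.07, beside 0.00 over all genes. With the sequencing lane as a term, Trp53 stayed at 0.31 (edgeR adjusted p = 0.374).

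Without the libraries labelled dcKO vehicle 2 and dcKO Wnt inhibitor 1 and 2, no member passed either (0 of 10), although 5.82% of all genes did. Trp53 remained at 0.31 on the log2 scale (SE 0.10, edgeR adjusted p = 0.13) and Pmaip1 was at 0.65 (SE 0.39, edgeR adjusted p = 0.482).

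The difference between both genotype effects was itself tested across all 19 libraries. The effect on the members in M against C minus that in dcKO vehicle against WT vehicle lay between −0.20 (Sesn2) and 0.75 (Pmaip1, 95% interval −0.52 to 2.03) on the log2 scale. Trp53 gave −0.02 (95% interval −0.34 to 0.31). None of the 10 passed, and neither did any of 16156 genes in this edgeR test (0 genes, 0% called, with 16 genes or 0.099% at an unadjusted p under 0.01). Without the 4 libraries of near-control Smarcc1 the count of genes was again 0. This fit treats the libraries of both experiments as independent, which the likeness of same-numbered libraries leaves in doubt, and a possible sharing of animals was not modelled.

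**Figure D2:**
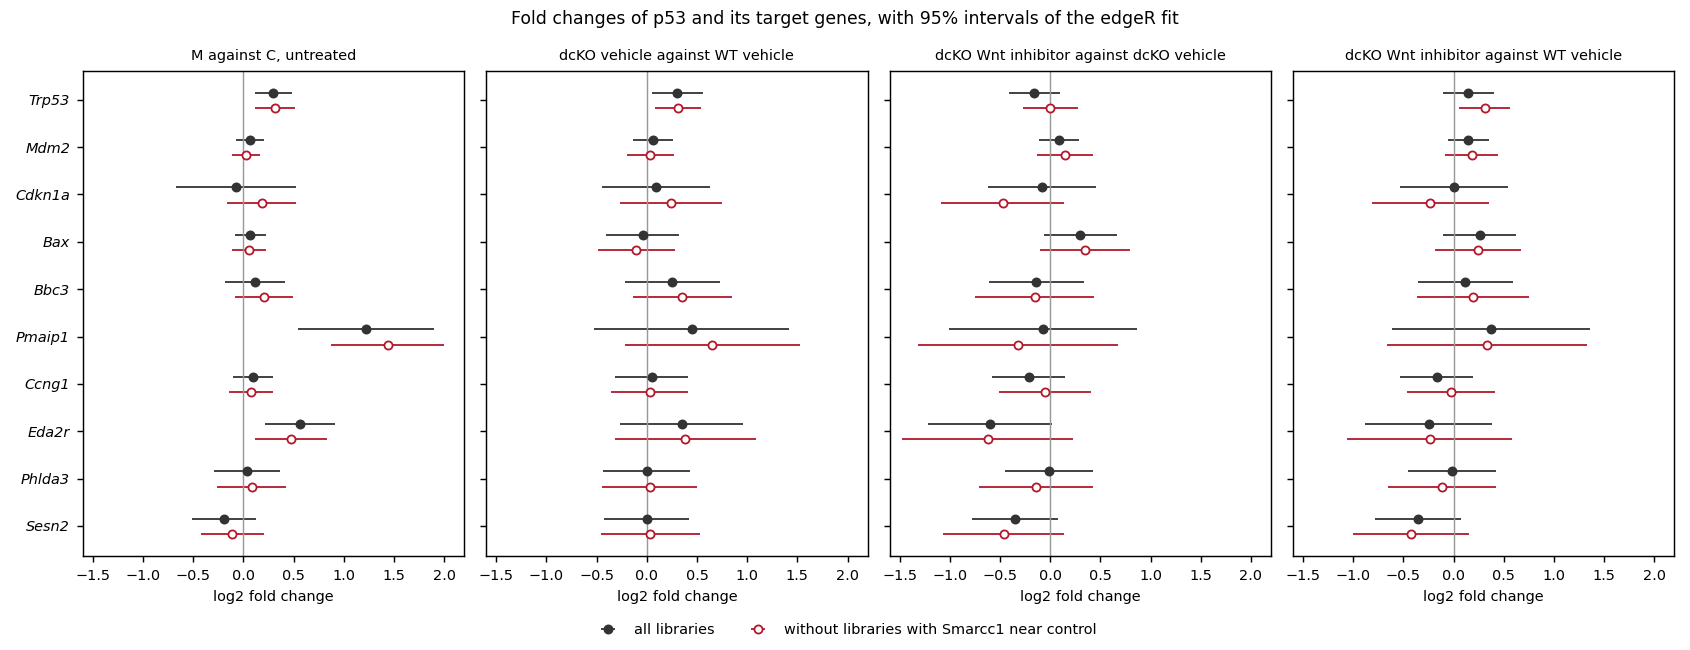
Log2 fold changes of the 10 genes in the 4 comparisons, with 95% intervals of the edgeR fit, for all libraries (filled) and without the 4 libraries with near-control Smarcc1 (open). Trp53 lies near 0.30 in M against C and in dcKO vehicle against WT vehicle, Pmaip1 has the widest intervals, and most intervals include 0.

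The comparison of dcKO Wnt inhibitor with dcKO vehicle asks what the inhibitor changes in embryos labelled dcKO. Eda2r and Sesn2 were lower in every inhibitor library than in every dcKO vehicle library, and Bax had the largest positive value. No member passed the test (0 of 10, against 0.055% of 16372 genes, 9 genes). Eda2r had a log2 fold change of −0.60 (SE 0.29, edgeR adjusted p = 0.327) and Sesn2 of −0.35 (SE 0.20, edgeR adjusted p = 0.405). All libraries were lower for these 2 members, as for 4.03% of all genes. Bax had a log2 fold change of 0.30 (95% interval −0.06 to 0.66, edgeR adjusted p = 0.404), Ccng1 of −0.22 (−0.58 to 0.15) and Trp53 of −0.16 (−0.41 to 0.09). Mdm2, Cdkn1a, Bbc3, Pmaip1 and Phlda3 lay between −0.14 and 0.09. The members' median was −0.11, beside 0.01 over all genes.

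Gene length moved with the inhibitor group. Across all genes, the median log2 fold change against dcKO vehicle was 0.17 in the fifth of genes with the shortest exons (median 1479 bp) and −0.12 in the longest (9631 bp). Among the members, Bax and Phlda3 have the shortest exons (1576 and 1559 bp) and Eda2r the longest (5891 bp). The tilt toward short genes was 0.54 in inhibitor 1, 0.31 in inhibitor 3, 0.15 in inhibitor 4 and −0.13 in inhibitor 2 on the log2 scale, and −0.28 to 0.12 in the other treated libraries. Choroid plexus markers were highest in inhibitor 1 as well (825 CPM in sum). The part of either in the values of Bax, Eda2r and Sesn2 was not tested.

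Without the libraries of near-control Smarcc1, the inhibitor comparison rests on 2 libraries against 3. Inhibitor 4, with Smarcc2 at 586 CPM, is among the inhibitor libraries kept. Trp53 was then equal in both groups (log2 fold change −0.00066, 95% interval −0.28 to 0.27), Cdkn1a was at −0.47 (95% interval −1.09 to 0.14), Eda2r at −0.62 and Sesn2 at −0.46. Again no member passed (0 of 10), and 1.02% of all genes did.

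Against WT vehicle, the inhibitor group differed from the controls in none of the members by the test (0 of 10, against 0.0977% of 16372 genes, 16 genes). Pmaip1 had a log2 fold change of 0.37 (95% interval −0.61 to 1.35), Sesn2 of −0.35 (−0.78 to 0.07), Bax of 0.26 (−0.10 to 0.62) and Eda2r of −0.25 (−0.88 to 0.38). Trp53 was at 0.15 (95% interval −0.10 to 0.40) with all libraries and at 0.31 (0.05 to 0.57, edgeR adjusted p = 0.137) without inhibitor 1 and 2. In that fit 0 of 10 passed, against 7.38% of all genes. None of the 10 had groups without overlap, as 3.48% of all genes had with every inhibitor library higher and 4.02% with every one lower. Both inhibitor comparisons share libraries with the vehicle comparison and are not independent of it.

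The 10 genes did not vary as a unit between libraries. Over the 45 pairs of members, the correlation of log2 CPM had a median r of 0.15 in the 7 untreated libraries (27 pairs positive) and of −0.14 in the 12 treated libraries (21 pairs positive). In the treated libraries Ccng1 and Eda2r went together most closely (r = 0.84), and Bax and Eda2r were the most opposed (r = −0.81). Libraries share depth and tissue composition, and the treated ones differ in the tilt by gene length given above, so these are descriptions only. Of the most opposed pair, Bax has 1576 bp of exon and Eda2r 5891 bp. The part of length in these correlations was not tested. Between experiments, Cdkn1a, Phlda3 and Pmaip1 deviated from their group mean in the same direction in 6, 7 and 6 of the 7 same-numbered pairs. Trp53 did so in 1 of 7, so the libraries with the higher Trp53 within a group in one experiment were mostly those with the lower level in the other.

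**Figure D3:**
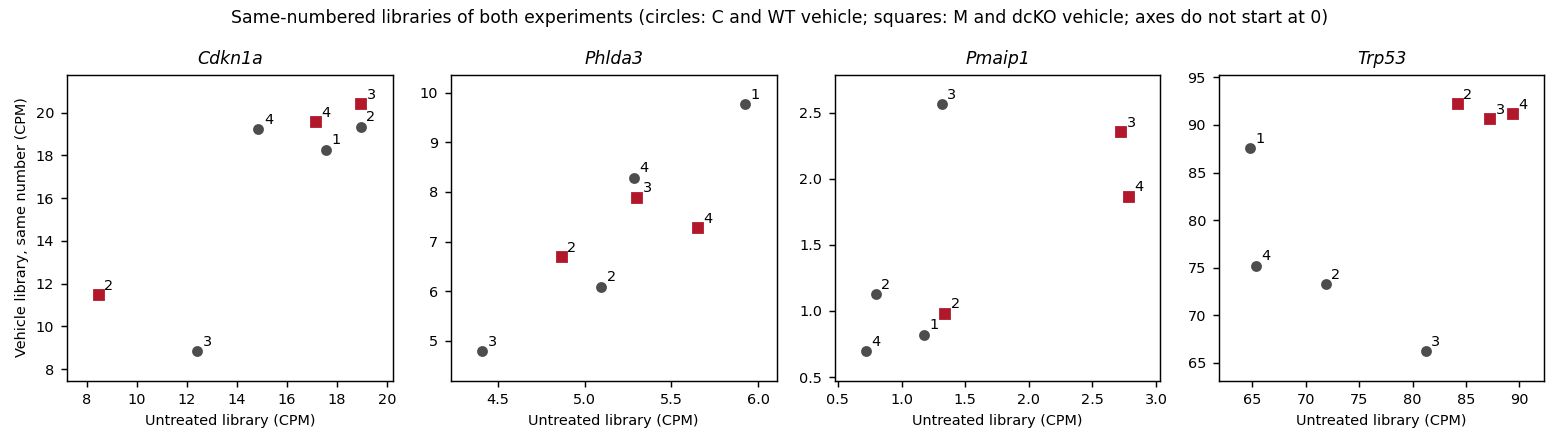
Level in the untreated library (x axis, CPM) against that in the vehicle library with the same number (y axis, CPM) for 4 genes, with circles for C and WT vehicle, squares for M and dcKO vehicle, the number beside each point, and axes that do not start at 0. Cdkn1a is low in the libraries labelled M 2 and dcKO vehicle 2, both with Smarcc1 near the control level, and in C 3 and WT vehicle 3, and in the controls Trp53 is highest in C 3 but lowest in WT vehicle 3.

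The genes whose pattern over the 12 treated libraries was most like that of Cdkn1a, of 12923 genes with a mean count of at least 50, were Tro (r = 0.94), Ccdc184 (0.92), Kndc1 (0.92), Fmnl1 (0.92) and Rasgef1c (0.91). Over the 7 untreated libraries their r with Cdkn1a was 0.85, 0.95, 0.94, 0.89 and 0.99. Both experiments may share animals, so the untreated values are not counted as an independent result. None of these 5 is a member of the lists of p53 or death genes described next.

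Other genes of the pathway were described in 4 lists. They were 16 regulators of p53 (such as Mdm4, Atm and Chek2), 34 other p53 targets (such as Zmat3, Aen and Gadd45a), 12 further Bcl2 family genes and 18 caspases and associated death genes. Of these, 15, 32, 11 and 18 were tested in the untreated and 14, 31, 11 and 18 in the treated experiment. With all libraries, no gene of any list passed an adjusted p under 0.05 in edgeR in any of the 4 comparisons. The medians in M against C were 0.00 for the regulators, −0.03 for the other targets, 0.01 for the Bcl2 family and 0.03 for the caspase list, beside 0.00 over all genes. In dcKO vehicle against WT vehicle they were −0.01, 0.00, 0.02 and 0.03. At an unadjusted p under 0.01 there was 1 gene of the 4 lists higher and 0 lower in M (2.66% and 2.8% of all genes), and 0 in either direction in dcKO vehicle.

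In M, the smallest p among these lists belonged to Thbs1, encoding the matrix protein thrombospondin 1 (89.4 against 67.8 CPM in C, log2 fold change 0.40, edgeR adjusted p = 0.149). Ephx1, an epoxide hydrolase, had −0.57 (edgeR adjusted p = 0.217) and Perp, a desmosomal protein, −0.44 (edgeR adjusted p = 0.228). In dcKO vehicle, the smallest p belonged to the death receptor Tnfrsf10b (2.03 against 1.21 CPM in WT vehicle, log2 fold change 0.74, edgeR adjusted p = 0.355), followed by the antiproliferative gene Btg2 (0.37) and by Pidd1 (0.22), a scaffold of caspase-2 activation. None of these values passed the test.

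Without the libraries of near-control Smarcc1, a choice made after seeing the data, the same 3 targets passed in both genotype comparisons. These comparisons may share animals and are not counted as independent. Igfbp3, a binding protein of insulin-like growth factors, fell by 0.86 on the log2 scale in M (edgeR adjusted p = 0.000159) and fell by 0.85 in dcKO vehicle (edgeR adjusted p = 0.00143). Ephx1 fell by 0.78 in M (edgeR adjusted p = 0.0131) and fell by 0.66 in dcKO vehicle (edgeR adjusted p = 0.0364). Thbs1 rose by 0.53 in M (edgeR adjusted p = 0.000834) and by 0.44 in dcKO vehicle (edgeR adjusted p = 0.0134). So 1 of the 32 and 31 other targets rose and 2 fell, and no regulator, Bcl2 family or caspase gene passed, beside 5.57% and 2.47% of all genes that rose and 6.88% and 3.34% that fell. The medians of the other targets were −0.08 in M and −0.04 in dcKO vehicle.

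With the inhibitor, Tnfrsf10b was lower than in dcKO vehicle (0.931 against 2.03 CPM, log2 fold change −1.13, edgeR adjusted p = 0.143), Rps27l, a ribosomal protein paralog, was higher (0.61, adjusted p = 0.166), and Hrk, a neuronal BH3-only gene, was lower (−0.51, adjusted p = 0.185). Against WT vehicle the smallest p values in the lists were those of Rps27l (0.61, edgeR adjusted p = 0.0996), of the DNA damage kinase Atm (−0.83, edgeR adjusted p = 0.117) and of the DNA repair kinase Prkdc (−0.43, edgeR adjusted p = 0.123). None passed with all libraries. Without the libraries of near-control Smarcc1, Igfbp3 rose by 0.68 (edgeR adjusted p = 0.041) and Hrk fell by 0.70 (edgeR adjusted p = 0.0478) against dcKO vehicle, where 0.303% of all genes rose and 0.72% fell. Against WT vehicle, Rps27l rose by 0.67 (edgeR adjusted p = 0.0277) and the kinase gene Hipk2 fell by 1.26 (edgeR adjusted p = 0.0331), where 2.66% of all genes rose and 4.72% fell. The 2 inhibitor libraries left, 3 and 4, had the tilts toward short genes of 0.31 and 0.15 given above and choroid plexus sums of 463 and 5.98 CPM. Against WT vehicle with all libraries, the median over all genes went from 0.18 in the group of genes with the shortest exons to −0.15 in that with the longest. The part of either in the values of these list genes was not tested.

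H3K27me3 at the starts of the 10 genes was examined in the peak lists of the 4 C and 4 K chromatin samples. Trp53, Mdm2, Bax and Ccng1 had no peak within 2000 bp of the start, nor over the gene, in any of the 8 libraries, as had 63.4% of 21951 protein-coding genes at their starts. The start used here was the outer end of the annotated gene. Of the members, only Pmaip1 had a peak within 2000 bp of it in at least 3 of 4 libraries of both letters. This was so for 10.1% of all genes. Within 5000 bp, Cdkn1a had a peak in all 4 libraries of each letter. Pmaip1 had a peak in 3 C libraries, with a fold enrichment over input of 4.30, 5.52 and 5.40 in C 1, 2 and 4 and none in C 3. In all K libraries Pmaip1 had one, with a highest fold enrichment of 4.03, 3.65, 5.87 and 9.44 in K 1 to 4. These peaks spanned the gene start and ranged from 445 bp (C 1) to 6726 bp (C 2). The libraries with no peak or with the shortest peaks (C 3, C 1, K 2 and K 1) were those with the fewest tags after duplicates were removed, 2420911 to 3969109 against 8898443 to 28335352 in the others. Over the whole genome these libraries had 9381 to 28659 peaks and the others 6674 to 46000. The part of tag number in the Pmaip1 peaks was not tested. Pmaip1 thus carried the mark in both groups. Pmaip1 and Eda2r had the lowest and next lowest levels per kb of the 10 genes in all 5 RNA groups. Eda2r had a peak at its start in 1 C and 1 K library only. Cdkn1a, with a peak inside the gene in all C and K libraries, had 4.19 to 4.94 CPM per kb. A link between the mark and these levels was not tested.

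Sesn2 had no peak within 2000 bp in the C libraries and had peaks in 3 K libraries, with a fold enrichment of 3.84 in K 1, 4.15 in K 3 and 4.77 in K 4, at 228 to 741 bp downstream of the start. This pattern was seen in 0.0957% of all genes (21 genes), and the reverse pattern in 0 genes. Within 5000 bp, C 2 also had a Sesn2 peak (fold enrichment 3.38, 3164 bp upstream of the start), so the pattern holds for the narrower window only. K 4 had the most peaks of all libraries (46000) and a peak at 32.7% of all starts, against 4.91% to 19.2% in the others. Phlda3 had a peak over its start in C 1 (fold enrichment 7.14), K 1 (8.81) and K 4 (6.79). Bbc3 had 1 peak in C 1 (6.16) and 1 in K 4 (4.30), and further inside the gene C 3 and K 1 also had one. Eda2r had 1 peak at its start in C 2 (3.38) and 1 in K 4 (3.31), and K 4 had another far inside the gene (3.06). The match to the p53 element in the intron of Eda2r printed above lies within both peaks at the Eda2r start.

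Cdkn1a carried the mark inside the gene, mostly away from the outer end of the annotated gene that was used as its start. Other transcript starts within the gene were not examined. A peak beginning 2036 to 3740 bp downstream of the start was present in all 4 C libraries (fold enrichment 4.27 to 7.42) and all 4 K libraries (4.10 to 9.49), while only K 4 had a weak peak within 2000 bp (3.02). The match to the p53 element 39 bp upstream of Cdkn1a was outside all of these peaks. Of the 10 members, 3, 2, 0 and 1 had a peak at the start in C 1 to 4, beside 19.2%, 16.2%, 5.99% and 13.4% of all genes. In K 1 to 4 it was 3, 1, 2 and 6 of 10, beside 17.8%, 4.91%, 13.8% and 32.7% of all genes. The sums were 6 of 40 C and 12 of 40 K combinations, of which K 4 alone gave 6, and 12 and 16 of 40 within 5000 bp. No test was made on the peak lists.

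**Figure D4:**
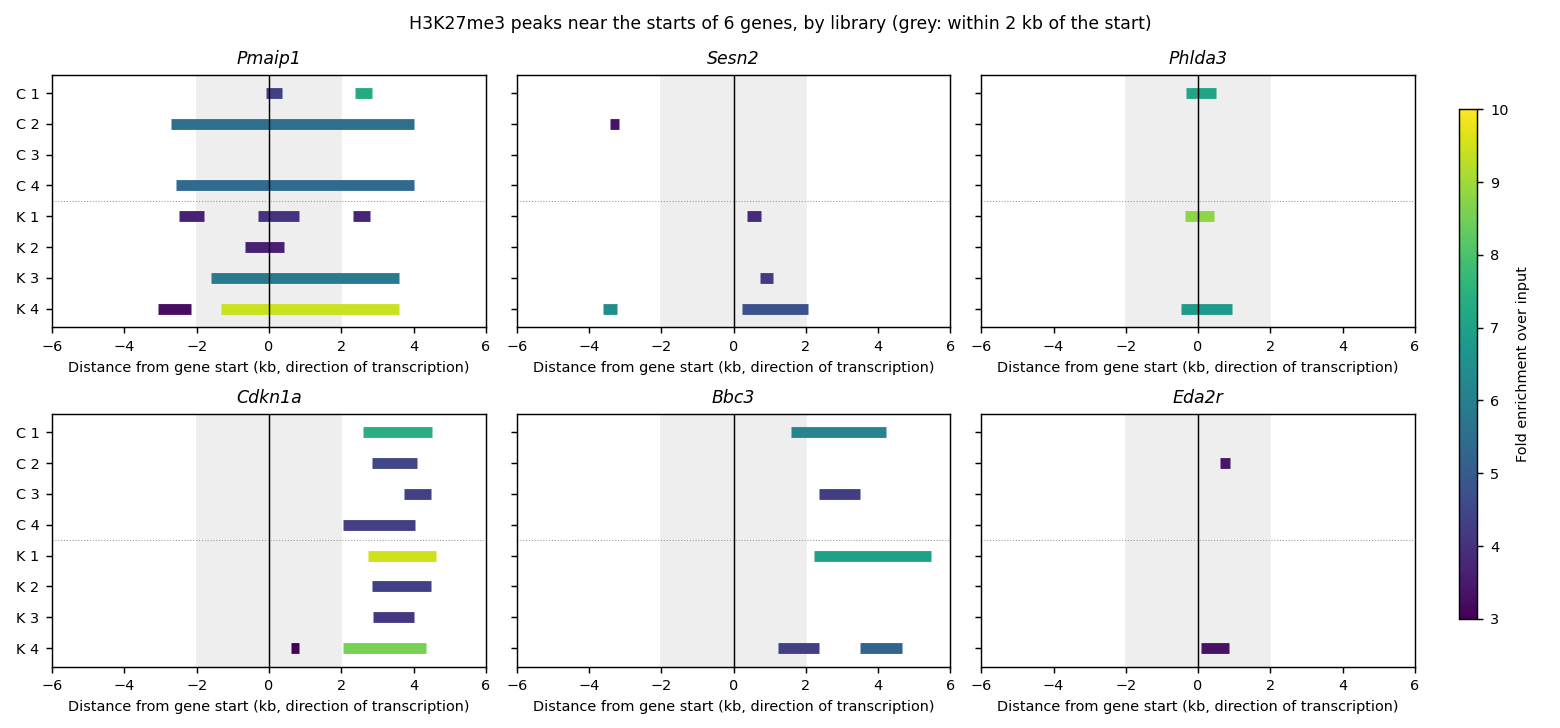
H3K27me3 peaks around the starts of 6 genes in the 8 chromatin libraries (rows), by distance from the start in kb in the direction of transcription (x axis), with the color giving the fold enrichment over input and grey the window of 2 kb. Pmaip1 has a peak over its start in 7 of 8 libraries, Cdkn1a a peak downstream of 2 kb in all 8, and Sesn2 peaks inside the window in K 1, K 3 and K 4 only.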

How the data were processed

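RNA-seq of 19 and H3K27me3 ChIP-seq of 8 cortex samples was analysed. The authors mapped RNA reads to mm10 with STAR, counted them per gene with featureCounts and deposited raw counts without normalization. The annotation release is not given in the sources used here. H3K27me3 peaks were called by the authors as broad regions, sample by sample, using MACS2 2.1.0.20140616 (q-value limit 0.1, pooled input, 1 tag at each position). Their deposited peak lists give the pileup signal, the fold enrichment (a ratio to input) and the −log10 p and −log10 q-value. These files were the starting point.

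The deposited counts entered edgeR 4.0.16 under R 4.3.3 (TMM, filterByExpr, robust quasi-likelihood test), the 7 untreated libraries by themselves and the 12 treated libraries together, and p-values were adjusted over all genes tested by Benjamini-Hochberg. CPM use the TMM factors, and correlations use log2 CPM with a prior count of 2. Nothing in the labels says that libraries of a group come from separate animals, so p-values measure only the spread between these libraries. No 2 libraries of a group had counts within sampling noise of each other (chi-square per degree of freedom 6.36 or more). The simulated M against C comparison of 15552 genes recovered 69 of 100 genes changed by 1 and 28 of 100 changed by 0.5 on the log2 scale. Of 100 each, the dcKO vehicle against WT vehicle simulation recovered 76 and 14. Counts were drawn around the control mean with the fitted spread of each gene. Every simulated M or dcKO vehicle library carried the full change. Libraries of near-control Smarcc1 were not imitated, so these rates may differ from those of the real comparisons. Unchanged genes called falsely numbered 9 in the simulated M against C and 1 in the simulated dcKO vehicle against WT vehicle comparison.

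The members and the gene lists were chosen with earlier results of these data known. The genes named are all members, the list genes that passed or else the 3 with the smallest p per comparison, and the 5 genes most like Cdkn1a. Gene positions are those of GENCODE on GRCm38. Alternatives were DESeq2 1.42.0 size factors and its test, no filter, the replicate number as a block, only both groups compared, the sequencing lane, each library left out, a q-value under 0.01 and a window of 5000 bp. The fits without the libraries whose Smarcc1 is near the control level were chosen after seeing the data. H3K4me2 was not analysed here.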

Additional observations from a re-analysis of the deposited data

Results flagged for a closer look

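Of 40 groups of 4 libraries (10 genes in 4 groups), 1 held a library far from the others, and chance marks about 1 group in 20. Cdkn1a was at 8.85 CPM in the library labelled WT vehicle 3, below 18.3 to 19.3 CPM in the other 3 WT vehicle libraries, and its gap to the nearest of them was 0.90 of the whole range of the group. WT vehicle 3 is also the shallowest treated library, and the same-numbered untreated library, C 3, had the lowest Cdkn1a of its group (12.4 CPM). The cause was not tested.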

How the results depend on the processing

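The log2 fold changes of the members were recomputed 560 times (10 genes, 4 comparisons), of which 512 kept their direction and their side of an adjusted p of 0.05, 0 lost a call, 3 gained one and 45 changed sign. The 3 gained were Pmaip1 and Trp53 without M replicate 2 and Pmaip1 with the DESeq2 test (adjusted p = 0.0437), all in M against C. Over all alternatives Trp53 in M against C stayed between 0.26 and 0.37 (adjusted p 0.0435 to 0.581) and Pmaip1 between 1.07 and 1.44 (0.00506 to 0.568). Most sign changes concerned values near 0, but Bbc3 (0.12) and Eda2r (−0.25) in the inhibitor group against WT vehicle also changed sign without WT vehicle 3. In dcKO vehicle against WT vehicle, Phlda3 became 0.000856 with DESeq2 size factors, 0.00315 without a filter, 0.030 with the replicate block, 0.0058 with the lane and 0.030 without the libraries of near-control Smarcc1, and Sesn2 became 0.0016, 0.0042, 0.037, 0.0030 and 0.034. In dcKO Wnt inhibitor against dcKO vehicle, Phlda3 became 0.067 with the lane. Against WT vehicle, Cdkn1a became −0.000195 without a filter and −0.23 without those libraries, and Phlda3 0.0011 with the replicate block and 0.073 with the lane. With 1 library left out at a time, sign changes fell within −0.28 to 0.18 (Cdkn1a) and −0.034 to 0.10 (Phlda3) in M against C. In dcKO vehicle against WT vehicle they fell within −0.11 to 0.24 (Cdkn1a), −0.15 to 0.12 (Bax), −0.085 to 0.20 (Ccng1), −0.14 to 0.17 (Phlda3) and −0.14 to 0.15 (Sesn2). In inhibitor against dcKO vehicle they fell within −0.24 to 0.038 (Cdkn1a), −0.41 to 0.17 (Pmaip1) and −0.14 to 0.055 (Phlda3). Against WT vehicle they fell within −0.19 to 0.14 (Cdkn1a), −0.053 to 0.33 (Bbc3), −0.50 to 0.027 (Eda2r) and −0.16 to 0.16 (Phlda3).

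The number of all genes called depended strongly on single libraries. For M against C it was 1, with 154 without a filter, 555 with the DESeq2 test, 0 with the replicate block and 0 to 1994 with 1 library left out (1994 without M 2). For dcKO vehicle against WT vehicle it was 1, with 0 for size factors, no filter, only both groups or the lane, 120 with the DESeq2 test, 5 with the block, 0 to 562 with 1 library left out and 978 without the libraries of near-control Smarcc1. For inhibitor against dcKO vehicle it was 9, with 20 without a filter, 339 with the DESeq2 test, 0 with the lane, 0 to 420 with 1 library left out (420 without inhibitor 2) and 172 without those libraries. Against WT vehicle it was 16, with 58 without a filter, 770 with the DESeq2 test, 189 with the block, 8 with only both groups, 0 with the lane, 0 to 1453 with 1 library left out (1453 without inhibitor 2) and 1241 without those libraries. Beyond the construction of these fits the cause was not tested. Within an experiment, the mean correlation of deviations was −0.14 over 3 untreated and 0.09 over 12 treated pairs with the same replicate number. Over pairs with different numbers it was 0.046 (9 untreated pairs) and −0.028 (36 treated pairs). So few same-numbered pairs cannot settle whether the numbers pair the libraries. The block changed no call of a member. Combinations of members and libraries with an H3K27me3 peak went from 6 (C) and 12 (K) of 40 to 12 and 16 with a window of 5000 bp and to 5 and 9 with a q-value under 0.01. Low counts limit Pmaip1, at 11 to 72 reads per library.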
